A study of Mus musculus with 6 samples.

Results

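The genes described here are 10 genes of the insulin-like growth factor (IGF) system, chosen by name: the ligands Igf1 and Igf2, the receptors Igf1r and Igf2r, and the binding proteins Igfbp2, Igfbp3, Igfbp4, Igfbp5, Igfbp6 and Igfbp7. They are 10 of the 34745 genes listed for each library. Of the 10, 9 passed the filter on low counts and were tested, and Igfbp2 did not pass. RNA was sequenced from the left ventricle of mice after myocardial infarction (MI), in which a blocked artery kills heart muscle. There were 2 groups of 3 libraries: MI-NS, used as the control group, and MI-DAPA, from mice that received dapagliflozin, which blocks the kidney's glucose transporter SGLT2 and is prescribed for diabetes and heart failure. All mice had an infarct, and no group without one was analysed here. The labels do not spell out NS, and file names of this group carry SA in its place; groups were taken from the sample titles. The strain, sex and age of the mice, the dose, the time after infarction and the region of the ventricle taken (scar, border or remote muscle) are not stated in the labels used here.

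IGF1 and IGF2 are small secreted proteins related to insulin. Both signal through the IGF1 receptor, a tyrosine kinase that acts through insulin receptor substrates, phosphoinositide 3-kinase and AKT. The IGF2 receptor binds IGF2, carries it to lysosomes for degradation and also transports lysosomal enzymes. In tissue fluid and plasma most IGF is held by binding proteins, which lengthen its life and limit or focus its access to the receptor, and several of which also bind matrix or cell surfaces. In the heart, IGF1 made by fibroblasts and macrophages is known for supporting muscle cell survival and growth, and binding proteins are made largely by fibroblasts, vessel cells and mural cells.

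The ventricles of dapagliflozin-treated mice had lower relative mRNA levels of both ligands and of 3 binding proteins. Igfbp6 fell 2.64-fold, Igfbp7 2.13-fold, Igfbp3 1.94-fold, Igf1 1.52-fold and Igf2 1.43-fold. Of the 9 tested genes, 5 were lower in MI-DAPA and 0 were higher in edgeR's quasi-likelihood test at a Benjamini-Hochberg adjusted p under 0.05, adjusted over all genes. Among all 13940 tested genes, 7.83% were lower and 8.69% were higher by the same test. The IGF genes were chosen with earlier results of these data known, which limits this comparison. The count of 0 was 1 at an unadjusted p under 0.05, 1 with DESeq2 and 0 with limma-voom, and the gene concerned was Igf2r in each case. In 6 tested IGF genes every MI-DAPA library lay below every MI-NS library, and in 1 every MI-DAPA library lay above, against 18.5% and 18.4% of all tested genes. The median log2 fold change was -0.60 over the 9 genes and -0.02 over all tested genes. In whole tissue, fewer cells of a type and less RNA per cell cannot be told apart. The summed level of 15 fibroblast markers was 3840 to 4700 CPM (counts-per-million) in the MI-NS libraries and 2360 to 2750 CPM in those of MI-DAPA, and its part in these results was not tested.

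**Figure D1:**
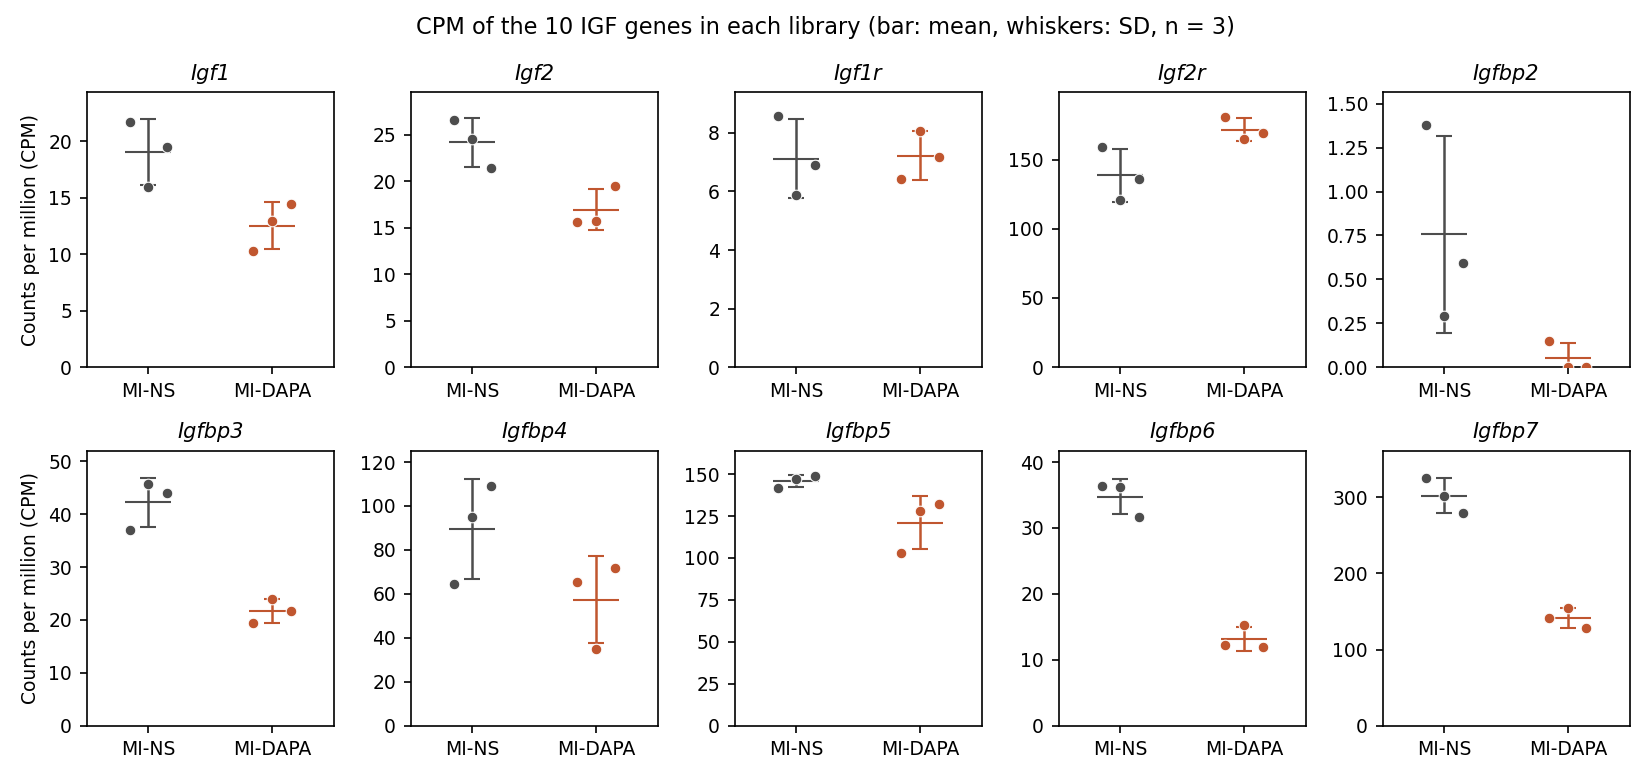
Counts-per-million values (CPM, scaled by TMM factors) of each IGF gene in each library. Points are libraries, horizontal bars are means and whiskers are SD (n = 3), with every axis starting at 0. The groups are separate for Igf1, Igf2, Igfbp3, Igfbp5, Igfbp6 and Igfbp7, with MI-DAPA below MI-NS, and for Igf2r, with MI-DAPA above. They overlap for Igf1r and Igfbp4. Igfbp2, hardly detected and not tested, is at 1.38, 0.294 and 0.594 CPM in MI-NS and at 0.149, 0 and 0 CPM in MI-DAPA, also without overlap.

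The promoter sequences of the 3 binding protein genes that fell, and of Igfbp5, are shown because the 3 fell together, so that their upstream letters can be compared. Each line gives the 250 bases upstream of the RefSeq start site, 5′ to 3′ on the gene's strand, from RefSeq on GRCm38.p6, the assembly also called mm10. RefSeq windows were found for 10 of the 10 IGF genes. Capitals mark the GC box, GGGCGG, and 3 TATA-type motifs. These are TATAAA, the variant TATATA and the variant TATTTAA. All were searched on both strands, and no marked motif overlaps another.
Igfbp6, chr15:102143936-102144185, plus strand: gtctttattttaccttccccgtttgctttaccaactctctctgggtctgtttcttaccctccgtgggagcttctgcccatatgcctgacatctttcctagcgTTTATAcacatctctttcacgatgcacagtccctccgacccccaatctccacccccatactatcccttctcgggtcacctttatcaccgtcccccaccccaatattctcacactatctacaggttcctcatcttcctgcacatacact
Igfbp7, chr5:77408046-77408295, minus strand: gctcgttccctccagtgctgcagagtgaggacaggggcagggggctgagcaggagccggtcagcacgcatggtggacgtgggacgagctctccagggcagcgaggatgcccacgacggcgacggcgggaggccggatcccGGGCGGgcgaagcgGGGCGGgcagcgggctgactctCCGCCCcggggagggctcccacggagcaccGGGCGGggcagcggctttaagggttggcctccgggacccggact
Igfbp3, chr11:7213924-7214173, minus strand: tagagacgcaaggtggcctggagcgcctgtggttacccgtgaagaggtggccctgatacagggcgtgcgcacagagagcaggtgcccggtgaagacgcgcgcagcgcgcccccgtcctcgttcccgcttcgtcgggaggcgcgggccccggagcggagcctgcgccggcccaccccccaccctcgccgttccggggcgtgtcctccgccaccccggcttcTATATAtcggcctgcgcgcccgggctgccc
Igfbp5, chr1:72874866-72875115, minus strand: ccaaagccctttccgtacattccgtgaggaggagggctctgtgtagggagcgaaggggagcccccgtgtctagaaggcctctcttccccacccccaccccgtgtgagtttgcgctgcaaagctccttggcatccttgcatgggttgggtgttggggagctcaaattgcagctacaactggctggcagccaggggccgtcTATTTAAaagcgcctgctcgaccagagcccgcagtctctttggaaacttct
The Igfbp7 window held 4 GC boxes and no TATA-type motif, at a GC content of 74%. The Igfbp3 window was as rich in GC, at 73.2%, but held no GC box and had TATATA 25 bases before the start site. That of Igfbp5 had TATTTAA 45 bases before the start site, at a GC content of 58.8%. The Igfbp6 window was the poorest in GC of the 4, at 49.6%, and its match to TATAAA, on the reverse strand, lay 143 bases upstream. The RefSeq start of Igfbp6 lies 176 bases before the gene start given in the deposited files. Over all 32851 RefSeq windows of this length the median GC content was 52.4%, and 32.7% held the GC box. The share with TATAAA was 12.4%, that with TATATA was 5.25% and that with TATTTAA was 4.18%. These matches describe the letters only.

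Both ligand genes fell. Igf1 (ENSMUSG00000020053, chromosome 10, 87858265 to 87937042) was measured at 21.7, 15.9 and 19.5 CPM in MI-NS replicates 1 to 3 and at 10.3, 12.9 and 14.4 CPM in MI-DAPA replicates 1 to 3. The groups did not overlap, although the lowest MI-NS library, replicate 2, lay close to the highest MI-DAPA library, replicate 3. The means were 19.1 ± 2.92 and 12.6 ± 2.1 CPM (SD, n = 3). On the log2 scale the fold change was -0.60 ± 0.16 (SE), and the edgeR quasi-likelihood test gave an adjusted p of 0.0315. The Igf1 call rested on single libraries: without MI-NS replicate 1 or 3, or MI-DAPA replicate 1 or 2, the edgeR adjusted p lay between 0.0694 and 0.105, with log2 fold changes of -0.62 to -0.48.

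Igf2 (ENSMUSG00000048583, chromosome 7, 142650766 to 142666816), the ligand best known as a growth factor of the fetus, stood at 26.6, 24.5 and 21.4 CPM in MI-NS and at 15.6, 15.7 and 19.5 CPM in MI-DAPA. Every MI-NS library lay above every MI-DAPA library, the gap being narrowest between replicate 3 of each group. Mean levels were 24.2 ± 2.58 and 16.9 ± 2.24 CPM (SD, n = 3), a log2 fold change of -0.52 ± 0.12 with an edgeR adjusted p of 0.0253. Without MI-NS replicate 1 or 2, or MI-DAPA replicate 1 or 2, the edgeR adjusted p was 0.0614 to 0.0977 and the log2 fold change -0.50 to -0.43. Igf2 shares 98 exonic bases with its antisense gene Igf2os, which had 0 to 4 counts in each library.

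Igf2 stood above Igf1 in every library, both in CPM and per kilobase of exon. The lengths merge the exons of all annotated transcripts, 9904 bases for Igf1 and 5723 for Igf2. Which transcripts were expressed is not known, so levels per kilobase compare genes only roughly, and the ratio below depends on these lengths. The ratio of Igf2 to Igf1 averaged 2.23 ± 0.388 (SD, n = 3) across the MI-NS libraries and 2.36 ± 0.263 across those of MI-DAPA, with overlap. The summed level of both ligands was 5.71 to 6.84 CPM per kilobase in MI-NS and 3.76 to 4.87 in MI-DAPA.

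Neither receptor gene passed the test. Igf1r (ENSMUSG00000005533, chromosome 7, 67952859 to 68226780), which encodes the signalling receptor, was at 8.56, 5.89 and 6.89 CPM in MI-NS and 6.41, 8.07 and 7.18 CPM in MI-DAPA. The MI-DAPA libraries lay within the range of the MI-NS libraries. The log2 fold change of Igf1r was 0.02 ± 0.17 (95% interval -0.37 to 0.41, edgeR adjusted p = 0.954), and its sign was negative with library totals as the only scaling (-0.09) and when replicate 2 of MI-NS (-0.09) or of MI-DAPA (-0.06) or replicate 3 of MI-NS (-0.00) was left out.

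Igf2r (ENSMUSG00000023830, chromosome 17, 12682406 to 12769664) had 159, 121 and 136 CPM in MI-NS and 181, 165 and 169 CPM in MI-DAPA. All MI-DAPA libraries were above all MI-NS libraries, in the direction opposite to the ligands. The group means were 139 ± 19 and 172 ± 8.63 CPM (SD, n = 3), and the log2 fold change of 0.31 ± 0.10 (95% interval 0.07 to 0.54) did not pass (edgeR adjusted p = 0.0762). Without MI-NS replicate 1, the highest of its group, the log2 fold change was 0.42 and the edgeR adjusted p 0.022. With DESeq2's Wald test on all libraries the adjusted p was 0.0466. Igf2r passed in only 3 of 16 alternatives. With library totals as the only scaling its log2 fold change was 0.20 and the edgeR adjusted p 0.345. The antisense gene Airn, a noncoding RNA known to silence the paternal Igf2r allele, overlaps Igf2r without sharing exonic bases and stood at 6.74 to 10.8 CPM in MI-NS and 6.46 to 7.88 CPM in MI-DAPA.

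Igfbp6 changed most among the tested binding proteins. Igfbp6 (ENSMUSG00000023046, chromosome 15, 102144362 to 102149511) encodes the binding protein that prefers IGF2 over IGF1. It stood at 36.3, 36.2 and 31.7 CPM in MI-NS and 12.2, 15.2 and 12 CPM in MI-DAPA. The lowest MI-NS library was above the highest MI-DAPA library by more than the range within either group. From 34.8 ± 2.62 to 13.1 ± 1.79 CPM (SD, n = 3), the log2 fold change was -1.40 ± 0.12 with an edgeR adjusted p of 0.00125, which placed Igfbp6 at rank 9 of all tested genes by p. It was called in 16 of 16 alternative settings, with log2 fold changes of -1.51 to -1.32.

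Igfbp7 (ENSMUSG00000036256, chromosome 5, 77349240 to 77408041) encodes a secreted protein that binds IGFs weakly and insulin too, and is found in vessel walls and matrix. Its levels were 325, 302 and 279 CPM in MI-NS and 142, 154 and 128 CPM in MI-DAPA. The groups were widely separated. Igfbp7 fell from 302 ± 23 to 141 ± 13 CPM (SD, n = 3), a log2 fold change of -1.09 ± 0.09 with an edgeR adjusted p of 0.00125 (rank 11 by p), and was called in 16 of 16 alternatives (-1.19 to -1.01). It shares 85 exonic bases with Polr2b, an RNA polymerase II subunit gene on the opposite strand, which was higher in MI-DAPA (log2 fold change 0.34 ± 0.09, edgeR adjusted p = 0.0303). The Polr2b call was lost without replicate 2 or 3 of MI-NS or replicate 1 or 3 of MI-DAPA, with log2 fold changes of 0.31 to 0.35.

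Igfbp3 (ENSMUSG00000020427, chromosome 11, 7206086 to 7213923) encodes the main carrier of IGF in blood. In MI-NS it measured 37, 45.7 and 44 CPM, and in MI-DAPA 19.5, 24 and 21.7 CPM. No library of one group reached the range of the other. Means were 42.2 ± 4.64 and 21.7 ± 2.28 CPM (SD, n = 3), the log2 fold change was -0.96 ± 0.12 and the edgeR adjusted p 0.00354. The Igfbp3 call held in 15 of 16 alternatives and was lost with only replicates 1 and 2 of both groups (-0.91, edgeR adjusted p = 0.078).

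Igfbp4 and Igfbp5 did not pass. Igfbp4 (ENSMUSG00000017493, chromosome 11, 99041244 to 99054392), an inhibitor of IGF action that is cleaved by the protease PAPP-A, ranged widely, with 64.7, 94.8 and 109 CPM in MI-NS and 65.5, 34.9 and 71.8 CPM in MI-DAPA. The groups overlapped through MI-NS replicate 1. The Igfbp4 log2 fold change was -0.64 ± 0.27 (95% interval -1.25 to -0.03) and the edgeR adjusted p 0.137. Its point estimate was close to those of the ligands, with a larger standard error, and it passed in 0 of 16 alternatives.

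Igfbp5 (ENSMUSG00000026185, chromosome 1, 72857932 to 72874884), a binding protein that also attaches to matrix, had 142, 147 and 149 CPM in MI-NS and 103, 128 and 132 CPM in MI-DAPA. All MI-DAPA libraries lay below the MI-NS libraries, whose spread was the smaller. The log2 fold change was -0.27 ± 0.10 (95% interval -0.50 to -0.04) and the edgeR adjusted p 0.102, and it passed in 0 of 16 alternatives.

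Igfbp2 (ENSMUSG00000039323, chromosome 1, 72824503 to 72852474), which lies 5457 bases from Igfbp5 with no listed gene between them, was hardly detected. The MI-NS libraries held 31, 6 and 10 counts and those of MI-DAPA 3, 0 and 0. Summed over the libraries this was 47 against 3 counts. Divided by library totals, without TMM factors, the ratio was 16.3 (exact 95% interval 5.24 to 81.8, for counting error only). The ratio was 8.63 without MI-NS replicate 1 and 18.3 to 21.7 without either other MI-NS library. Leaving out MI-DAPA replicate 2 or 3 gave 10.8 or 11.1. Replicate 1 held all 3 counts of the MI-DAPA group, and leaving it out gave a ratio of at least 10.7, taking a floor of 3 counts over the group. MI-NS replicate 1 held most of the counts of its group. In that library and in MI-NS replicate 3, the mesothelial genes Msln and Upk3b, named after their values were seen, were also higher. Mesothelium is the cell layer that covers the heart. Msln had 62, 1 and 28 counts in the MI-NS libraries against 3, 4 and 2 under dapagliflozin. Upk3b had 123, 1 and 44 against 6, 5 and 15. The summed level of 10 mesothelial markers, 3 of them tested and 0 called, differed less between the MI-NS libraries, at 23.1, 11.5 and 17.9 CPM. It was 9.26 to 9.94 CPM in MI-DAPA. The part of these markers in the Igfbp2 counts was not tested. Igfbp1, next to Igfbp3 on chromosome 11 and known as a liver gene, had 0 counts in all 6 libraries.

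**Figure D2:**
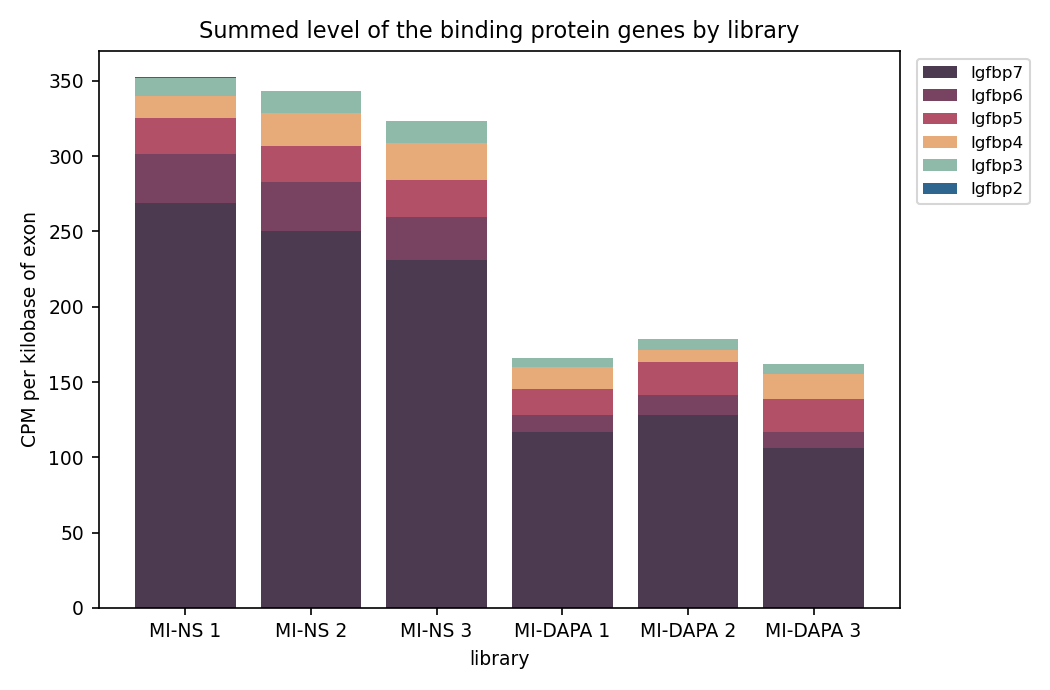
Summed level of the 6 binding protein genes in each library, in CPM per kilobase of exon, with each gene as a coloured segment of the bar. The bars reach 323 to 352 in MI-NS and 162 to 178 in MI-DAPA, and Igfbp7 takes up most of each.

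Per kilobase of exon, every binding protein gene except Igfbp2 stood above both ligand genes in mean level in each group. In MI-NS the mean order was Igfbp7 (250 CPM per kilobase), Igfbp6 (31.3), Igfbp5 (24.3), Igfbp4 (20.3), Igf2r (14.9), Igfbp3 (13.5), Igf2 (4.22), Igf1 (1.92), Igf1r (0.424) and Igfbp2 (0.409). Neighbours from Igfbp5 to Igfbp3 overlapped in their libraries, as did Igf1r and Igfbp2. In MI-DAPA the order was Igfbp7 (117), Igfbp5 (20.2), Igf2r (18.4), Igfbp4 (13), Igfbp6 (11.8), Igfbp3 (6.94), Igf2 (2.96), Igf1 (1.27), Igf1r (0.43) and Igfbp2 (0.0269), with overlap between Igfbp5 and Igf2r and between Igfbp4 and Igfbp6. Igfbp6 thus stood at place 2 in MI-NS and at place 5 in MI-DAPA.

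The share of the summed binding protein level that Igfbp5 made up was 6.71% to 7.69% in MI-NS and 10.3% to 13.6% in MI-DAPA. That of Igfbp6 was 8.83% to 9.49% and 6.61% to 7.67%. The groups did not overlap in either share. Igfbp7 made up 71.4% to 76.3% of the sum in MI-NS and 65.5% to 71.6% in MI-DAPA, with overlap. The binding proteins summed to 339 ± 14.9 CPM per kilobase (SD, n = 3) without dapagliflozin and to 169 ± 8.38 with it, and their sum per unit of ligand sum was 51.5 to 58.3 in MI-NS and 33.3 to 44.2 in MI-DAPA. Most of the binding protein sum is Igfbp7, whose product binds IGFs weakly, so the ratio to the ligands largely follows that gene. It was not computed without Igfbp7. These ratios describe mRNA and not protein.

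**Figure D3:**
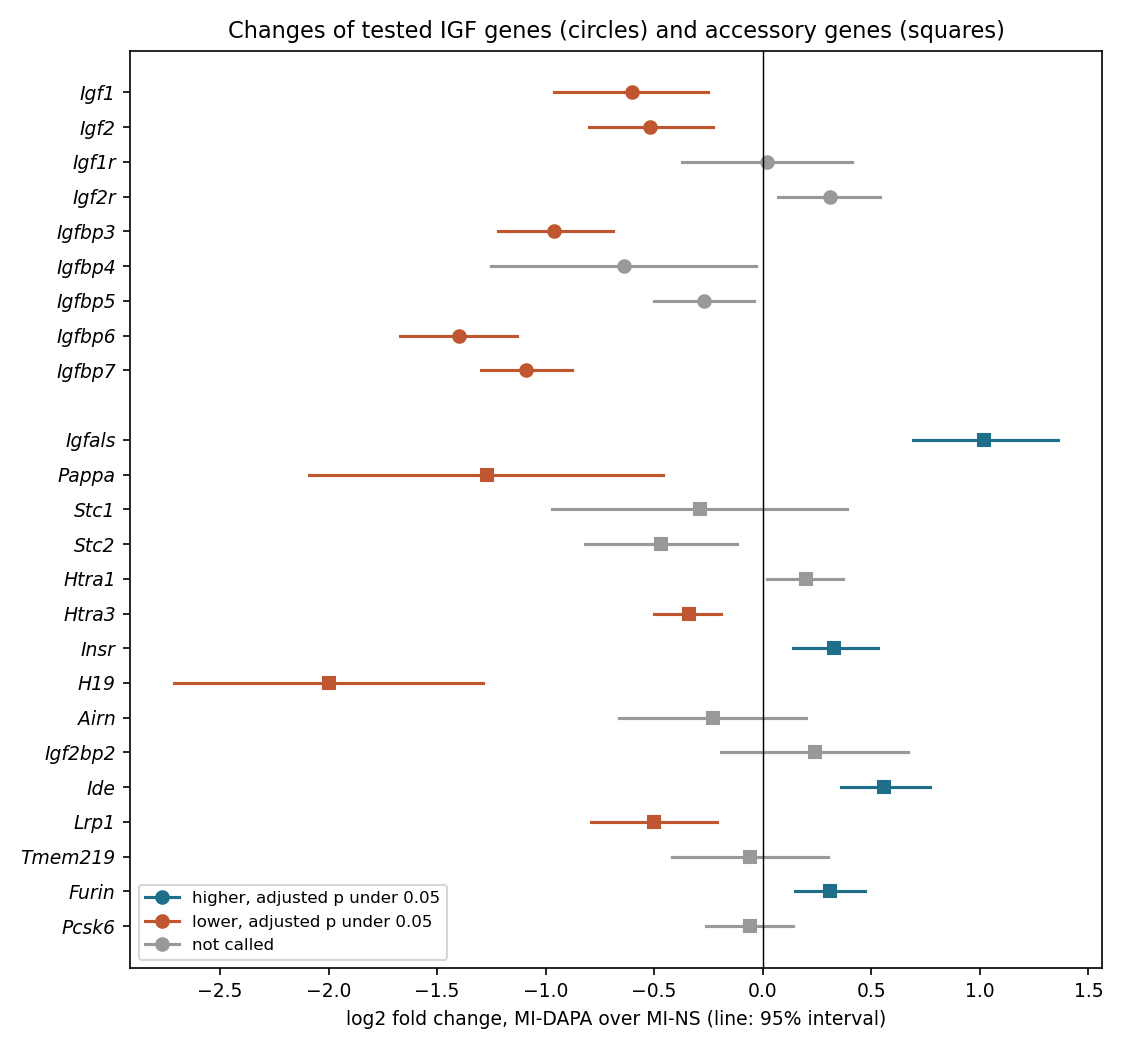
Log2 fold change of MI-DAPA over MI-NS for the 9 tested IGF genes (circles) and 15 tested accessory genes (squares), with 95% intervals from the edgeR fit. The intervals of Igfbp3, Igfbp6, Igfbp7 and H19 lie wholly below -0.5, while those of Igf1r, Stc1, Airn, Igf2bp2, Tmem219 and Pcsk6 include 0.

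Genes that process, carry or clear IGFs moved in both directions. Of 23 accessory genes 15 were tested, of which 4 were higher, 4 lower and 7 not called, with a median log2 fold change of -0.06. Among all tested genes 8.69% were higher and 7.83% lower. Igfals, the acid-labile subunit that joins IGF and IGFBP3 in the large circulating complex, rose from 4.3, 5.1 and 4.69 CPM to 9.64, 8.37 and 10.6 CPM (log2 fold change 1.02 ± 0.15, edgeR adjusted p = 0.00535). The groups did not overlap, and Igfals moved opposite to Igfbp3, its partner. Ide, the insulin-degrading enzyme, which also degrades IGF2, rose from 58.8, 53.1 and 52.1 CPM to 72.8, 84.3 and 85.2 CPM (0.56 ± 0.09, edgeR adjusted p = 0.00636). The convertase gene Furin (0.31 ± 0.07, edgeR adjusted p = 0.0197) and the insulin receptor gene Insr (0.33 ± 0.09, edgeR adjusted p = 0.0325) were also higher. Insr lost its call without every library other than MI-NS replicate 1 (edgeR adjusted p 0.0525 to 0.112), Furin lost it when replicate 3 of either group was left out, and both lost it with library totals as the only scaling (edgeR adjusted p 0.248 and 0.203). Insr stood at 121, 101 and 106 CPM in MI-NS and at 145, 137 and 131 CPM in MI-DAPA. Per kilobase it was 17.2 to 21.1 times the level of Igf1r in MI-NS and 20.8 to 27.7 times in MI-DAPA. These ratios are rough, because the exonic length of Igf1r came from a gene model with other coordinates than the deposited one.

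H19, the noncoding RNA gene that lies 72622 bases from Igf2 with no listed gene between them and shares its imprinting control region, fell from 8.83, 5.89 and 7.84 CPM to 1.24, 2.9 and 1.44 CPM. The groups did not overlap, and the log2 fold change was -2.00 ± 0.31 (edgeR adjusted p = 0.00602), against -0.52 for Igf2, a difference that was not tested. H19 is known to be expressed from the maternal allele and Igf2 from the paternal allele. Among 14 imprinted genes, H19 and others often studied with it, 12 were tested. Of these, 3 were lower and 0 higher, against 7.83% and 8.69% of all tested genes, and the median log2 fold change was -0.34. The other 2 lower genes were the noncoding RNA gene Meg3 (-0.92, edgeR adjusted p = 0.0104) and Ndn (-0.56, edgeR adjusted p = 0.047), and Ndn lost its call without any of the 6 libraries.

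The protease gene Pappa, whose product cleaves IGFBP4 and frees IGF, had 30, 23 and 18 counts in the MI-NS libraries against 6, 13 and 9 under dapagliflozin. Its log2 fold change was -1.27 ± 0.36 (edgeR adjusted p = 0.0432), and the call was lost when any of the 6 libraries was left out (edgeR adjusted p 0.0532 to 0.134). Stc2, which encodes an inhibitor of PAPP-A, was at -0.47 ± 0.15 (edgeR adjusted p = 0.068), and its relative Stc1 at -0.29 ± 0.30 (edgeR adjusted p = 0.551). The serine protease gene Htra3 (-0.34 ± 0.07, edgeR adjusted p = 0.0132) and the endocytic receptor gene Lrp1 (-0.50 ± 0.13, edgeR adjusted p = 0.0303) were lower. Lrp1 lost its call without every library other than MI-NS replicate 2 (edgeR adjusted p 0.0597 to 0.114), and Htra3 lost it without MI-DAPA replicate 1 or 3 (0.052 and 0.0731).

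The other tested accessory genes were not called by edgeR: Htra1 was at 0.20, Igf2bp2 at 0.24, Airn at -0.23, Tmem219 at -0.06 and Pcsk6 at -0.06 on the log2 scale. Igfbpl1, Pappa2, Insrr, Igf2os, Igf2bp1 and Igf2bp3 had between 0 and 15 counts per library and were not tested, and Ins2 had 0 counts. The accessory genes that rose numbered 2 with library totals as the only scaling or when replicate 3 of either group was left out. Those that fell numbered 1 or 2 without any library other than MI-NS replicate 2.

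**Figure D4:**
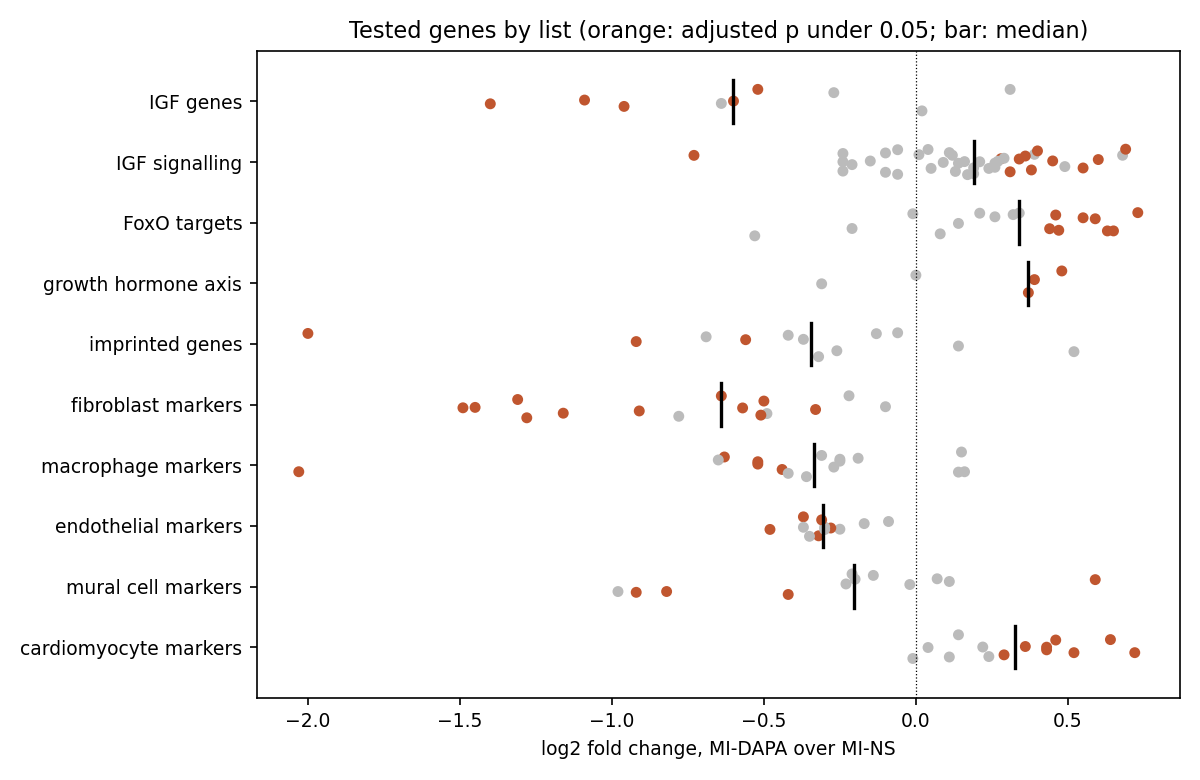
Log2 fold change of MI-DAPA over MI-NS for every tested gene of each list. Points are genes, orange points passed the edgeR test at an adjusted p under 0.05, and the black bar is the list's median, which is -0.60 for the IGF genes, 0.19 for IGF signalling, -0.64 for fibroblast markers and 0.32 for cardiomyocyte markers.

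Genes of the signalling pathway inside the cell did not share the direction of the ligands. Among all tested genes 8.69% were higher and 7.83% lower. Of 41 signalling genes tested, 10 were higher and 1 lower, with a median log2 fold change of 0.19. The highest-ranked were the kinase genes Akt1 (0.45, from 160, 163 and 162 to 224, 211 and 226 CPM) and Akt2 (0.55), the phosphoinositide 3-kinase subunit Pik3r1 (0.69) and the transcription factor Foxo3 (0.60), with edgeR adjusted p of 0.00544 to 0.00964. Socs3, a feedback inhibitor of cytokine and insulin signalling, was the gene that fell (-0.73, edgeR adjusted p = 0.0335). The adaptor genes Irs1 (0.17) and Irs2 (0.68) and the transcription factor Foxo1 (0.11) did not pass, with edgeR adjusted p of 0.248, 0.0912 and 0.413. The count of 10 was 4 with library totals as the only scaling, 6 and 4 without MI-NS replicates 2 and 3, and 5 without MI-DAPA replicate 1 or 3; Socs3 kept its call without MI-DAPA replicate 2 and lost it without each of the other libraries.

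For the next 2 lists too, the shares of all tested genes were 8.69% higher and 7.83% lower. Of 17 known targets of FoxO factors, which AKT keeps out of the nucleus, 8 were higher and 0 lower (median 0.34). They included Pdk4 (0.73), which limits glucose oxidation, Klf15 (0.59), Sesn1 (0.65) and the catalase gene Cat (0.44), with edgeR adjusted p of 0.00499 to 0.00745. Of 5 genes that carry the growth hormone signal, a main inducer of Igf1 in the liver, 3 were higher: the receptor Ghr (0.39, edgeR adjusted p = 0.0132), Stat5a (0.48) and Stat5b (0.37). The FoxO count was 4 with library totals as the only scaling and 5 without MI-DAPA replicate 1, and the growth hormone count was 0 and 1 under the same settings. The Stat5b call was lost when replicate 2 or 3 of MI-NS, or replicate 1 or 2 of MI-DAPA, was left out (edgeR adjusted p 0.0586 to 0.104).

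Marker levels of several cell types differed between the groups beside the IGF genes. The counts below stand against 7.83% of all tested genes lower and 8.69% higher. Of 15 fibroblast markers 11 were lower and 0 higher (median -0.64). Of 12 endothelial markers 5 were lower, with summed levels of 1490 to 1660 and 1260 to 1340 CPM. Macrophage markers summed to 473 to 578 and 364 to 416 CPM, and 5 of 16 were lower. Mural cell markers, of which 3 of 12 were lower and 1 higher, summed to 3080 to 3170 and 2990 to 3210 CPM. Cardiomyocyte markers summed to 64800 to 65500 and 80100 to 85400 CPM, and 8 of 14 were higher. No marker in these 5 lists was at 0 in every library. Atrial markers summed to 1340 to 1600 and 317 to 452 CPM, almost all of it Nppa, which stressed ventricles also express; of 7 tested, 1 was lower and 1 higher, and Bmp10 had 0 counts throughout. The atrial light chain gene Myl7 stood at 22.9, 0.196 and 15.2 CPM in MI-NS and 0.199, 12.1 and 6.84 CPM in MI-DAPA, high or near 0 in libraries of both groups. Adipocyte markers summed to 746 to 885 and 587 to 607 CPM, nearly all of it Fabp4, which endothelium also expresses. Lymphocyte markers summed to 8.93 to 18.8 and 7.58 to 7.88 CPM, with 2 of 10 tested and 1 lower. The part of these markers in the IGF results was not tested. The endothelial markers that were lower numbered 9 with library totals as the only scaling and 3 with the mitochondrial chromosome left out. They numbered 1 to 3 without any library other than MI-NS replicate 1. The macrophage markers that were lower numbered 3 without MI-DAPA replicate 1. Cardiomyocyte markers that were higher numbered 5 with library totals as the only scaling. They also numbered 5 without replicate 3 of either group or without MI-DAPA replicate 1.

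The IGF genes were also measured against the mean log2 level of the 15 fibroblast markers, a scale chosen after the values were seen. Of these markers 11 were themselves lower in MI-DAPA. Subtracting a marker mean moves every IGF gene of a library by the same amount, so the differences between IGF genes stay as they were. On that scale Igfbp6 differed between the groups by -0.63 and Igfbp7 by -0.32, each without overlap between libraries. Igfbp3 (-0.18), Igf1 (0.17), Igf2 (0.26) and Igfbp4 (0.10) had overlapping libraries. Igfbp5 (0.50), Igf1r (0.81) and Igf2r (1.09) were higher relative to the markers in every MI-DAPA library. Against 12 endothelial markers Igfbp3, Igfbp6 and Igfbp7 had differences of -0.66, -1.10 and -0.80 without overlap. Igf2r, at 0.61, did not overlap either. Igfbp5 (0.02), Igf1 (-0.30), Igf2 (-0.21), Igfbp4 (-0.38) and Igf1r (0.33) had overlapping libraries on the endothelial scale.

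The genes whose profile over the 6 libraries was nearest to each IGF gene were found among other tested genes whose log2 CPM averaged at least 3, by the root mean square difference of centred log2 CPM, a description in which all genes share the same libraries and depth. Nearest to Igfbp6 were Thbs4 (0.130), Timp1 (0.146) and Eln (0.163), which encode thrombospondin-4, a metalloproteinase inhibitor and elastin. Sh3pxd2b (0.099) and Kdelr3 (0.124) lay near Igfbp7, and nearest to Igfbp3 were Il4ra (0.066), S100a11 (0.072) and Nbl1 (0.082). Igf1 lay nearest to Tmem176b (0.049), Ifit3 (0.052) and the fibroblast proteoglycan gene Dcn (0.079). Igf2 lay nearest to Thy1 (0.060), Ifi204 (0.073) and Clip2 (0.077). The gene nearest to Igfbp5 was Atf4 (0.018), to Igf2r Arnt (0.013), to Igf1r Aff4 (0.023) and to Igfbp4 Ubp1, at 0.212 the most distant of these matches.

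**Figure D5:**
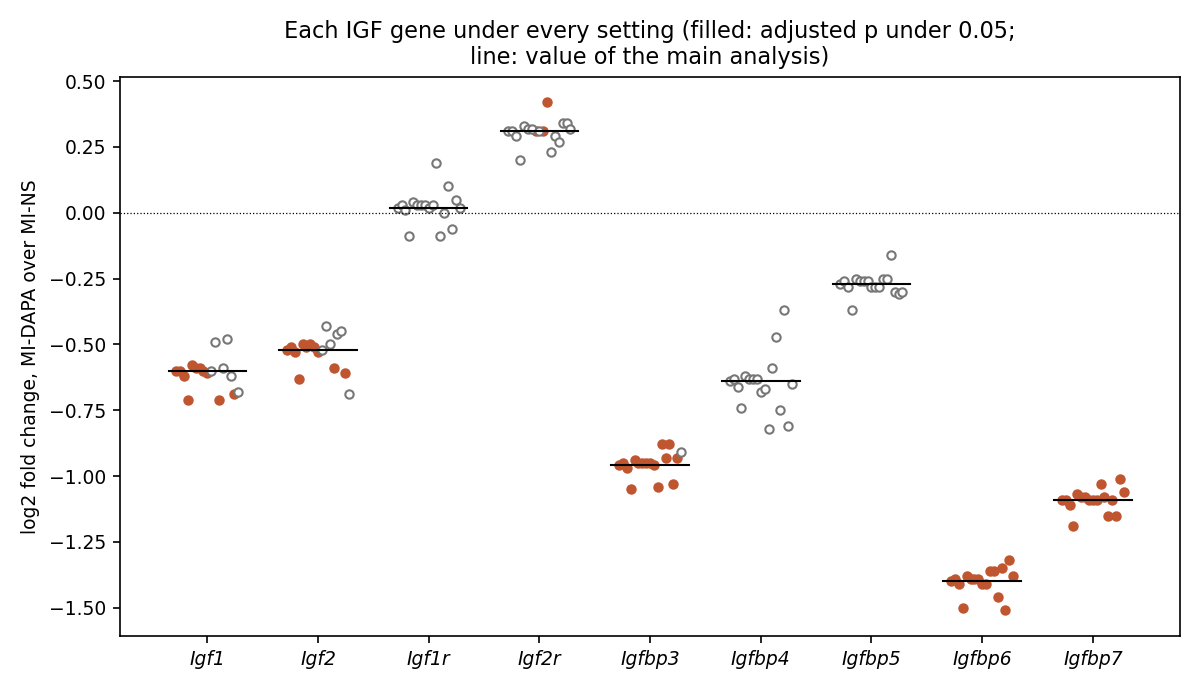
Log2 fold change of each tested IGF gene in the main analysis and 16 alternative settings. Filled points passed at an adjusted p under 0.05, open points did not, and the line marks the main value: Igfbp6 and Igfbp7 are filled throughout, Igf1 and Igf2 are filled in 10 of the 16 alternatives, and Igf1r lies on both sides of 0.

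Total counts were 17207974 to 20563188 per library, and genes of the mitochondrial chromosome took 34.3% to 42% of them. With library totals as the only scaling, 24.7% of all calls were higher in MI-DAPA, against 52.6% with TMM factors, and the median log2 fold change of all genes was -0.12, against -0.02. The 5 IGF genes that fell were lower under that scaling too, with log2 fold changes from -1.50 for Igfbp6 to -0.63 for Igf2.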

How the data were processed

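The authors deposited raw read counts per gene, with 1 table for each library. Build mm10 and the tools StringTie 1.3.0 and edgeR are named per the submitters' processing notes. No source used here gives the aligner, the counting step or the use of strand, so reads shared with an overlapping gene may be in either. Titles call the libraries biological replicates without naming animals, so p-values reflect the spread among libraries, which may be technical. Counts of no pair of libraries differed by as little as sampling noise (chi-square divided by its degrees of freedom was at least 10.1).

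Counts were filtered with filterByExpr (minimum count 10, minimum total 15), scaled by TMM and tested with glmQLFit and glmQLFTest in edgeR 4.0.16 (R 4.3.3), with Benjamini-Hochberg adjustment over 13940 genes. CPM (counts-per-million) used TMM-scaled library sizes. Levels per kilobase used exonic lengths of GENCODE M21, with the exons of all transcripts of a gene merged. For Igf1r the deposited gene coordinates differ from those of GENCODE M21, so its length may not match its counts. A floor of 3 counts equals 0.133 to 0.178 CPM, and intervals on counts cover counting error only. Coordinates are those of the deposited files. Alternatives were other scalings and filters, DESeq2 1.42.0, limma-voom (limma 3.58.1), a replicate block and libraries left out; those for the Igfbp2 ratio, Socs3 and Polr2b were chosen after seeing the data. The steps were tested on simulated data in which 200 of 13940 genes were changed. They recovered 42.3% of the genes changed 1.5-fold, 79.6% of those changed 2-fold and 100% of those changed 4-fold. Of 154 calls, 10 were false. A change near or below 1.5-fold that was not called may thus have been missed. The IGF genes and the lists were chosen with earlier results of these data known. Named genes were the 10 IGF genes, all accessory genes, up to 4 called genes with the smallest p of each other pathway list and a few chosen by name; Msln, Upk3b, Myl7, Nppa, Fabp4, Bmp10, Socs3 and Polr2b were named after their values were seen. Some genes that this rule covers are left out here.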

Additional observations from a re-analysis of the deposited data

How the results depend on the processing

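Igfbp6, Igfbp7 and Igfbp3 kept their direction in all 16 alternatives, and Igf1 and Igf2 kept theirs but not always their calls. Of all genes, 1212 were higher and 1092 lower in the main analysis, and 410 were higher and 1249 lower with library totals as the only scaling. With only replicates 1 and 2 of both groups, 8 were higher and 16 lower. The files of replicate 3 are named in another style in both groups, and whether this marks a batch is not known. Leaving out each library in turn gave 541 to 1087 genes higher and 457 to 844 lower, 0 to 1 IGF genes higher and 3 to 5 lower. With DESeq2 1 IGF gene was higher, and with replicates 1 and 2 alone 2 were lower. Without a filter 6 IGF genes were lower, the added gene being Igfbp2 (edgeR adjusted p = 0.0216 over 20218 genes). Signs of uncalled genes turned: Igf1r was -0.09 with library totals and -0.09 to 0.19 over the libraries left out, Stc1 -0.54 to 0.06, Tmem219 -0.19 to 0.06 and Pcsk6 -0.13 to 0.01. The cause was not tested.

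With the replicate number as a block, 1272 genes were higher and 1035 lower, 1 IGF gene was higher (Igf2r) and 3 lower (Igfbp3, Igfbp6 and Igfbp7), and 9 endothelial markers were lower, against 5. The deviations of same-numbered libraries correlated at 0.04, -0.01 and 0.11, and 1 of 3 numbers correlated best with itself, so the numbers were not taken to pair the libraries.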
